A study of Mus musculus with 6 samples.

Results

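The genes described here encode the subunits of the mitochondrial respiratory chain (complexes I to IV) and of ATP synthase (complex V). They were chosen by symbol: protein-coding genes named Nduf with a letter and number, Sdha to Sdhd, Uqcr, Cox4 to Cox8, Atp5, and the mitochondrially encoded mt-Nd, mt-Co, mt-Cytb and mt-Atp genes. This gave 97 members among the 24815 gene identifiers measured, of which 84 are encoded in the nucleus and 13 in the mitochondrial genome. The nuclear members divide into 35 of complex I, 4 of complex II, 8 of complex III, 20 of complex IV and 17 of complex V, and the mitochondrial members into 7, 0, 1, 3 and 2. A choice by symbol leaves out subunits with other names, such as Cyc1 and Ndufab1, and takes in a few genes, such as Atp5s, that are not subunits of the working enzyme.

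RNA sequencing was done on common myeloid progenitors, the cells from which erythroid, megakaryocytic, granulocytic and monocytic cells arise, sorted from the liver of C57BL/6 mouse embryos at E13.5 (mid-gestation). The wild-type group holds libraries A, F and L. The mutant group, libraries C, D and Q, is homozygous for a deletion of the -77 enhancer of Gata2 (genotype -77-/-), a distal element that drives this transcription factor in myeloid progenitors. The labels name no treatment and no further allele, and do not say whether libraries came from separate embryos, so the p-values cover no more than the spread among these 6 libraries.

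Electrons from NADH and succinate enter the chain through complexes I and II, pass by coenzyme Q to complex III and by cytochrome c to complex IV, which reduces oxygen. The proton gradient built on the way drives ATP synthase. Mitochondrial DNA encodes the most hydrophobic core subunits, while the rest are made in the cytosol and imported, so complexes I, III, IV and V need products of both genomes. Complex IV has several subunits with alternative paralogs: Cox4i2 is best known from lung and from cells under low oxygen, Cox6a2 and Cox7a1 from heart and skeletal muscle, and Cox6b2 from testis.

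The libraries held 14473913 to 30596279 expected counts each. Gata2 checked the labels, with 57.4 to 78.6 CPM (counts relative to the library's TMM-scaled total) in the wild type and 8.92 to 17.8 CPM in the mutants. Markers of common myeloid progenitors such as Kit, Cd34 and Mpo were present in every library (9 of 9 listed genes, summing to 3789 to 5272 CPM). They were not all level between the groups. Kit stood at 317 to 337 CPM in the wild type and at 102, 292 and 270 CPM in mutants C, D and Q. Myb (371 to 399, and 159, 257 and 260 CPM) and Runx1 (168 to 174, and 50.5, 164 and 151 CPM) were also lower in each mutant. Cd34 (685 to 862, and 1254, 998 and 1024 CPM) and Spi1 (112 to 120, and 171, 138 and 132 CPM) were higher. The other listed genes overlapped between the groups. The library of mutant C stood apart from the other 5 in the lengths of the genes it read: its count-weighted mean gene length was 1795 bases, against 2826 to 3113 bases in the others. Summed markers of maturing erythroid cells (8 genes, 2182 CPM against 310 to 872 CPM in the others), lymphoid cells (6 genes, 246 against 58.0 to 77.9 CPM) and macrophages (8 genes, 34.6 against 15.8 to 21.2 CPM) were also highest in mutant C, and their part in the results was not tested. The erythroid sum was nearly all globin RNA, while Alas2, Epb42 and Slc4a1 of mutant C lay within the wild-type range, and the lymphoid sum was nearly all Ptprcap, with Cd3e at 0 in every library. Because most members are short, the main comparisons below are given with and without mutant C.

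Promoter sequences show what several of these dispersed genes share. RefSeq windows (GRCm38.p6, 250 bases before to 50 bases after a gene's start) were found for 66 of the 84 nuclear members. The letters GCGCA, any base, then GCGC, which the factor NRF1 recognises in many genes of oxidative phosphorylation, stood on either strand in 17 of these 66 genes (25.8%), against 5.2% of all 27025 genes with a window. The letters CCGGAAG, an ETS-type motif like that read by GABP (NRF2), stood in 16 member genes (24.2%), against 9.9% of all genes. The GATA letters AGATAA stood in 9.1% of member genes and 12.7% of all genes, and the hypoxia response core ACGTG in 24.2% and 21.8%. TGGGAA, the core of the RBPJ motif, stood in 21.2% and 28.3%. These are matches of letters, not measured binding.

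Shown are the 250 bases before the start of the Cox6b pair, whose shares are described below, and of 4 members with NRF1 letters there. These 4 had the highest mean level among the 11 members with a single window and NRF1 letters before the start. All are from the minus strand of GRCm38.p6 and read 5′ to 3′. Cox6b1 lies at chr7:30626115-30626364, Cox6b2 at chr7:4753095-4753344, Atp5h at chr11:115419920-115420169, Atp5k at chr5:108434400-108434649, Cox6a1 at chr5:115348959-115349208 and Sdhd at chr9:50603850-50604099. Capitals mark the NRF1, ETS and RBPJ letters on either strand. Cox6a1 held NRF1 letters at both -162 and -117 from the start, and Atp5h, Cox6a1 and Sdhd held both NRF1 and ETS letters in these bases. The ubiquitous paralog Cox6b1 held ETS letters at -28, whereas none of the searched letters stood in the sequence of Cox6b2.
Cox6b1: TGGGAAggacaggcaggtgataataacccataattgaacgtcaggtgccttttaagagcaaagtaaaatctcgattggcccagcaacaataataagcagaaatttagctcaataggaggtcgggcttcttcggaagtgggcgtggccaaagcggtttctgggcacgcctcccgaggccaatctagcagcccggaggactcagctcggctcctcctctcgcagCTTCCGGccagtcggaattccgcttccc
Cox6b2: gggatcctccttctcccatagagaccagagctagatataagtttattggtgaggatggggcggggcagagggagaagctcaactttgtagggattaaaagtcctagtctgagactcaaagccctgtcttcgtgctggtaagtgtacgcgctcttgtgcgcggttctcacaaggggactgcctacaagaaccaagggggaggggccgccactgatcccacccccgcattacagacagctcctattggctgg
Atp5h: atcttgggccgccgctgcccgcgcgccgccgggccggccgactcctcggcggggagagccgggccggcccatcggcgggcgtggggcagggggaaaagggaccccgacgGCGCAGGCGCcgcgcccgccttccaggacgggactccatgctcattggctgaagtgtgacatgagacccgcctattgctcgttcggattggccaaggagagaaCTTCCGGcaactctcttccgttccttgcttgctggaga
Atp5k: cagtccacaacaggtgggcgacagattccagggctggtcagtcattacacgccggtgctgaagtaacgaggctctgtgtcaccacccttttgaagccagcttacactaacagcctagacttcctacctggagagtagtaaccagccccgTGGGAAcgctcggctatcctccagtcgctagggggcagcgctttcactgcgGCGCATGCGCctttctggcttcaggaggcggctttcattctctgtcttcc
Cox6a1: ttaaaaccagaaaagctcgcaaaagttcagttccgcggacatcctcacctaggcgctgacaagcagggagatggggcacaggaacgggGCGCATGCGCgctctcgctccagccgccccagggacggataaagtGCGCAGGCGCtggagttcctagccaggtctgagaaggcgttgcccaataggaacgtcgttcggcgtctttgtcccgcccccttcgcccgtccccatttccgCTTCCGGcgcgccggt
Sdhd: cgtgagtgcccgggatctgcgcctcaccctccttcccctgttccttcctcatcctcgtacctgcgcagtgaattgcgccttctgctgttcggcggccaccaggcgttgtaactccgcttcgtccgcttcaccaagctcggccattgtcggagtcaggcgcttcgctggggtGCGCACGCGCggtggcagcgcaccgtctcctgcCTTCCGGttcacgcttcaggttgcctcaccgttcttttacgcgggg

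Across genotypes, 1 member stood out: Cox4i2, the alternative form of subunit 4 of complex IV, was higher in all 3 mutants. The gene (ENSMUSG00000009876, chr2:152754173-152765037, plus strand) received 175.0, 136.0 and 162.0 expected counts in wild-type A, F and L and 650.6, 398.0 and 673.0 in mutant C, D and Q. On the length-corrected TPM scale (abundance relative to the library's total) it stood at 21.5, 23.5 and 25.8 in the wild type and at 66.5, 51.8 and 50.8 in the mutants. All mutants lay above all wild-type libraries, and mutants D and Q were almost level.

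In CPM, Cox4i2 averaged 8.37 ± 1.33 in the wild type and 37.2 ± 29.9 in the mutants (SD, n = 3 each), the wide mutant spread coming from 71.7 in C beside 19.0 in D and 20.9 in Q. With all 6 libraries it did not pass the threshold, an adjusted p of 0.05 (log2 change 2.14, SE 0.56, edgeR quasi-likelihood test with Benjamini-Hochberg adjusted p = 0.578). Without mutant C it rose 2.38-fold (log2 change 1.25, SE 0.15, edgeR adjusted p = 0.0122). With all 6 libraries and each library's trend with gene length removed, it also passed (log2 change 1.15, SE 0.10, edgeR adjusted p = 0.00827). Over all fits and libraries left out, its log2 change ran from 1.12 to 2.46 and its adjusted p (edgeR, DESeq2 or limma-voom) from 1.14e-08, in DESeq2 without mutant C, to 0.840, in edgeR without wild-type A.

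Its partner Cox4i1 (ENSMUSG00000031818, chr8:120668222-120674207, plus strand), the form most tissues use, was far more abundant. It stood at 767, 769 and 819 TPM in the wild type and at 1157, 837 and 839 TPM in mutants C, D and Q. Its log2 change was 1.18 (SE 0.56) with all 6 libraries and 0.24 (SE 0.10, edgeR adjusted p = 0.487) without mutant C. The paralogs have similar lengths, 727.0 and 670.7 bases, so their ratio within a library can be set side by side across all 6.

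The share of Cox4i2 in the summed TPM of the pair was 2.73%, 2.97% and 3.05% in wild-type A, F and L. In mutant C, D and Q it was 5.43%, 5.83% and 5.70%. The groups were well apart, at 2.92% ± 0.165 and 5.65% ± 0.200 (SD, n = 3 each), a ratio of 1.94, and mutant C fell beside the other mutants. The exact two-sided permutation test gave p = 0.1, the smallest that 3 against 3 libraries allow, and 0.2 after adjustment over the 8 paralog shares tested. Without mutant C the difference was 2.85 percentage points, against 2.74 with it (exact permutation p = 0.2, the smallest that 3 against 2 allow). In expected counts the share had exact 95% binomial intervals, which cover counting error only, of 2.52 to 3.39% for wild-type A (of 5974 counts), 2.73 to 3.83% for F (of 4184) and 2.84 to 3.87% for L (of 4871). For the mutants the intervals were 5.51 to 6.40% for C (of 10951), 5.74 to 6.96% for D (of 6292) and 5.66 to 6.57% for Q (of 11026), and no mutant interval met a wild-type one. Cox4i2 shared no stretch of 36 bases with any other gene of the GENCODE M21 annotation.

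**Figure D1:**
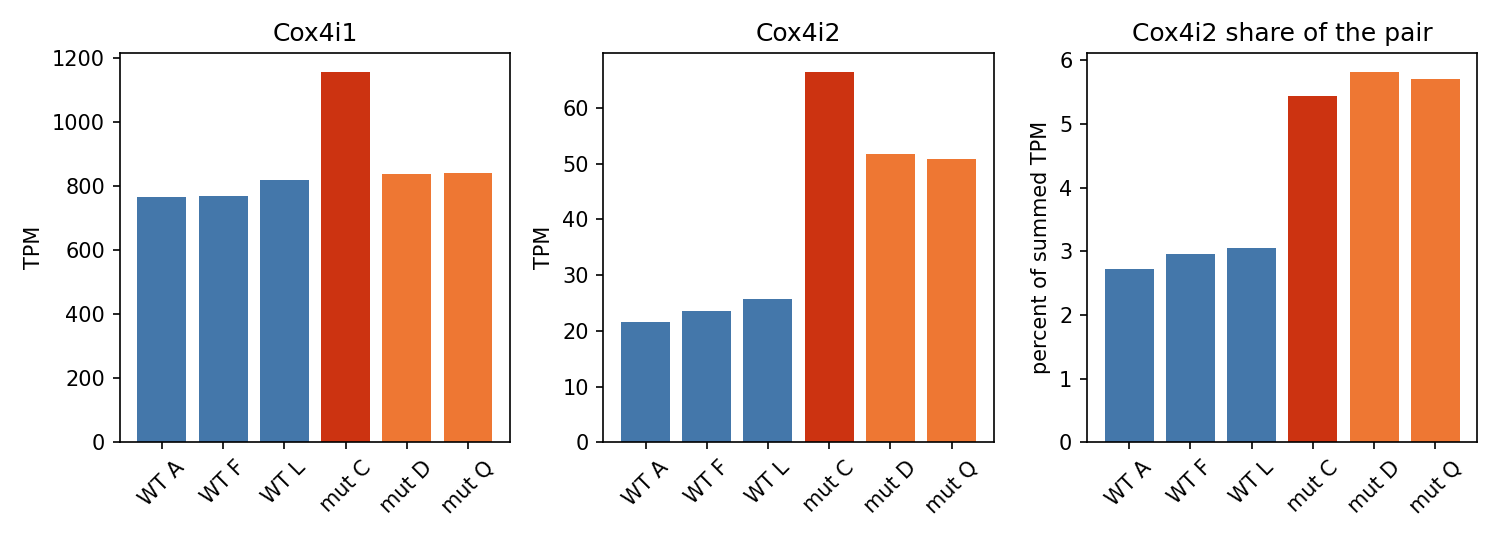
Bars give TPM of Cox4i1 (left) and Cox4i2 (middle) and the percent of the pair's summed TPM that is Cox4i2 (right) in each library, without error bars because each bar is 1 library. Cox4i2 made up 2.73 to 3.05% of the pair in the wild type and 5.43 to 5.83% in the mutants.

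In bulk RNA, more cells that express Cox4i2 and more RNA per cell cannot be told apart. Cox4i2 is also known from pericytes, so 8 pericyte and stromal markers were read in the same libraries. Kcnj8 and Cspg4 were at 0 counts in all 6 libraries and Rgs5 at no more than 0.0631 CPM. The 8 markers summed to 26.9 to 31.2 CPM in the wild type and to 11.0, 24.9 and 23.7 CPM in mutants C, D and Q, nearly all of it Pdgfrb (26.4 to 30.5 CPM, and 10.9, 24.0 and 22.3 CPM). The other markers were each under 1 CPM in every library, and Col1a1 was highest in mutant Q, at 0.496 CPM. The 5 endothelial markers summed to 58.9 to 62.3 CPM and to 38.4, 48.9 and 49.9 CPM, mostly Pecam1, whereas Cdh5, Stab2 and Lyve1 were highest in mutant Q (1.15, 1.39 and 1.58 CPM). Of 10 hypoxia response genes tested, 0 passed the threshold in edgeR with or without mutant C (backgrounds 0.155% and 0.84%). At an unadjusted edgeR p under 0.05, 0 passed with all libraries and 1 without mutant C, where 4.34% of all genes were higher and 6.02% lower, so that these counts are near the background. Egln3, a hydroxylase induced under low oxygen, had a log2 change of 0.26 (SE 0.08, edgeR adjusted p = 0.280) without mutant C. Hif1a, which encodes the oxygen-regulated factor itself, stood at 131 to 136 CPM in the wild type and at 80.4, 136 and 139 CPM in mutants C, D and Q.

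No gene of the other paralog groups of complex IV was called. Cox6b2 (ENSMUSG00000051811, chr7:4751792-4753094, minus strand) stood at 36.3, 29.0 and 31.4 TPM in the wild type and at 17.4, 22.2 and 17.9 TPM in mutants C, D and Q, lower in each mutant. The common form Cox6b1 stood at 560, 633 and 665 TPM and at 1083, 605 and 606 TPM. Cox6b2 made up 6.09%, 4.39% and 4.50% of the pair in the wild type and 1.58%, 3.54% and 2.87% in the mutants (4.99% ± 0.95 and 2.66% ± 0.994, SD, n = 3 each, exact permutation p = 0.1, adjusted 0.2). The difference was -2.33 percentage points, and -1.79 without mutant C (exact permutation p = 0.2). The edgeR log2 change of Cox6b2 was 0.03 (SE 0.42) with all libraries, -0.60 (SE 0.16, edgeR adjusted p = 0.224) without mutant C and -1.03 (edgeR adjusted p = 0.326) with the length trend removed. It therefore passed the threshold in none of these fits, and its direction with all libraries differed between fits.

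Cox6a2, the muscle form of subunit 6a, was near the floor of detection, with 14 to 46 counts in a library. Its share of the Cox6a pair was 1.23%, 1.43% and 1.32% in the wild type and 1.03%, 0.631% and 1.08% in the mutants (exact permutation p = 0.1, adjusted 0.2). Cox7a1, the muscle form of subunit 7a, received 10 to 41 counts, and its share of the 3 Cox7a genes did not separate the groups (exact permutation p = 0.5, adjusted 0.8). Cox7a2l, whose protein helps join complexes III and IV, took 49.3%, 46.9% and 47.5% of the Cox7a sum in the wild type and 28.1%, 43.6% and 42.0% in the mutants (exact permutation p = 0.1, adjusted 0.2), a difference of -10.0 percentage points, or -5.13 without mutant C (exact permutation p = 0.2), with gene lengths of 1078.2 bases for Cox7a2l and 754.0 bases for Cox7a2. Cox7b2, Cox8b and Cox8c received 0 counts in all 6 libraries, which allows up to 0.0259 CPM over the libraries together, and Ndufa4l2, a hypoxia-induced paralog of Ndufa4, received 6.0 counts in all.

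The 3 genes for subunit c of ATP synthase, Atp5g1, Atp5g2 and Atp5g3, encode the same mature protein. Atp5g3 took the largest part, 55.0 to 56.8% of their summed TPM in the wild type and 37.4%, 57.4% and 59.5% in mutants C, D and Q. With all libraries none of the 3 shares separated the groups (exact permutation p = 0.8 to 1.0). Mutant C lay below and mutants D and Q above every wild-type library, so that the difference was -4.45 percentage points with mutant C and 2.56 without it (exact permutation p = 0.2, the smallest that 3 against 2 allow). Values of Atp5g2 are uncertain, because 37.3% of its 36-base windows also occur in Gm10175, which received more counts than Atp5g2 itself.

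Over all members, 0 of the 93 tested passed the threshold with all 6 libraries, against 19 of 12222 genes in all (0.155%), and 1 member, Cox4i2, did so without mutant C, against 106 of 12614 (0.84%). Cox4i2 was also the single member called by DESeq2 with all libraries, where 1.16% of genes were called. limma-voom called 0 members with all libraries (0.262% of genes). With the length trend removed the count was 1, again Cox4i2 (background 0.442%). Without mutant C, Cox4i2 was the single member called by DESeq2, limma-voom and the length fit (backgrounds 2%, 0.88% and 0.888%). At an unadjusted edgeR p under 0.05, 7 members were higher and 0 lower with all libraries (background 1.71% higher, 3.09% lower), and 17 were higher and 1 lower without mutant C (background 4.34% higher, 6.02% lower). The 4 members left out of the tests, Cox7b2, Cox8b, Cox8c and Ndufa4l2, had too few counts.

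All 93 log2 changes were above 0 with all libraries, with a median of 1.22 for nuclear and 1.07 for mitochondrial members, against -0.02 for all genes. Without TMM factors, which moved the median of all genes to -0.29, 87 members were above 0 and 6 below, with medians of 0.67 (nuclear) and 0.57 (mitochondrial). Mutant C carried the excess: its CPM exceeded that of the other 5 libraries in 80 of 80 nuclear members, by a median of 4.46 times their mean. The same count was not made over all genes, so it cannot be read as particular to the members. Without mutant C, 85 members were above 0 and 8 below, with medians of 0.15 and 0.29, against -0.01 for all genes. The median length was 698 bases for the nuclear members tested and 2622 bases for all genes tested, and genes within the same length limits are compared below. CPM of the groups did not overlap, with the mutants higher, in 27 of 93 members with all libraries (background 10.6%) and in 27 without mutant C (background 14.3%). They were lower in the mutants in 0 members with all libraries (background 11.4%) and in Cox6b2 alone without mutant C (background 14.6%). On the TPM scale, 17 of 80 nuclear members were higher and 5 lower in all mutants than in all wild-type libraries, against 1.82% and 24% of all genes tested.

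**Figure D2:**
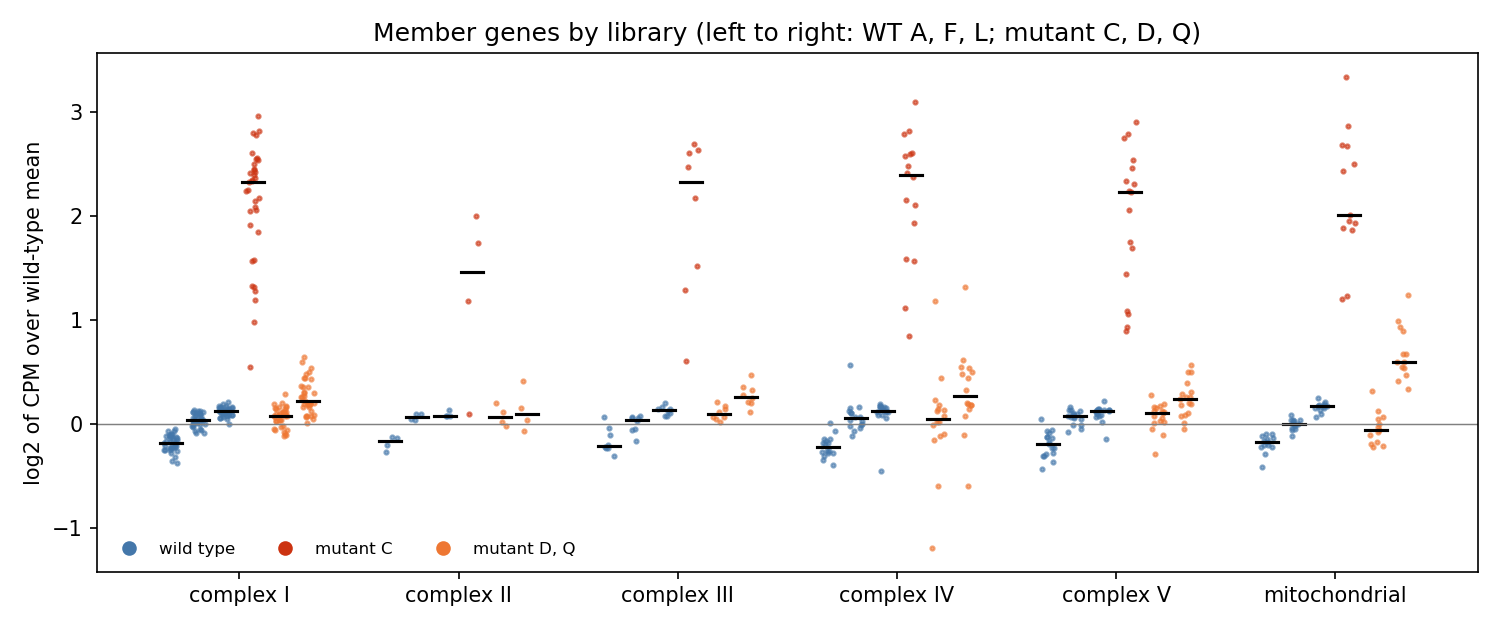
Each point is 1 member gene, shown as the log2 of its CPM in 1 library over its wild-type mean, for nuclear genes by complex and for the mitochondrial genes, with bars at the medians. Mutant C sits above the other libraries in each group, while mutants D and Q lie mostly within 1 log2 unit of the wild type.

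The excess in mutant C followed gene length among the members. The 26 shortest nuclear members (349 to 583 bases) were a median of 5.21-fold higher in mutant C than the mean of the other 5 libraries, and the 26 longest (961 to 2900 bases) 2.98-fold, after 0.5 CPM was added to each value. All tested genes within the same length limits were 4.34-fold and 1.32-fold higher in mutant C. Median lengths were 509.5 bases for the shortest members and 497.5 bases for all genes within their limits. For the longest they were 1387 and 1922 bases, so that this second comparison was not matched in length. Across the 80 nuclear members Spearman's rho between length and this ratio was -0.58, and across all 12222 genes -0.75, as a description over genes that share these libraries. For mutants D and Q over the wild type the same groups of nuclear members gave 1.15-fold and 1.1-fold. All tested genes within the same length limits gave 1.11-fold and 1.02-fold. Spearman's rho between length and this second ratio was -0.20 across the nuclear members and -0.27 across all genes. With each library's length trend removed, 66 members were above 0 and 27 below, with medians of 0.11 (nuclear) and 0.38 (mitochondrial).

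**Figure D3:**
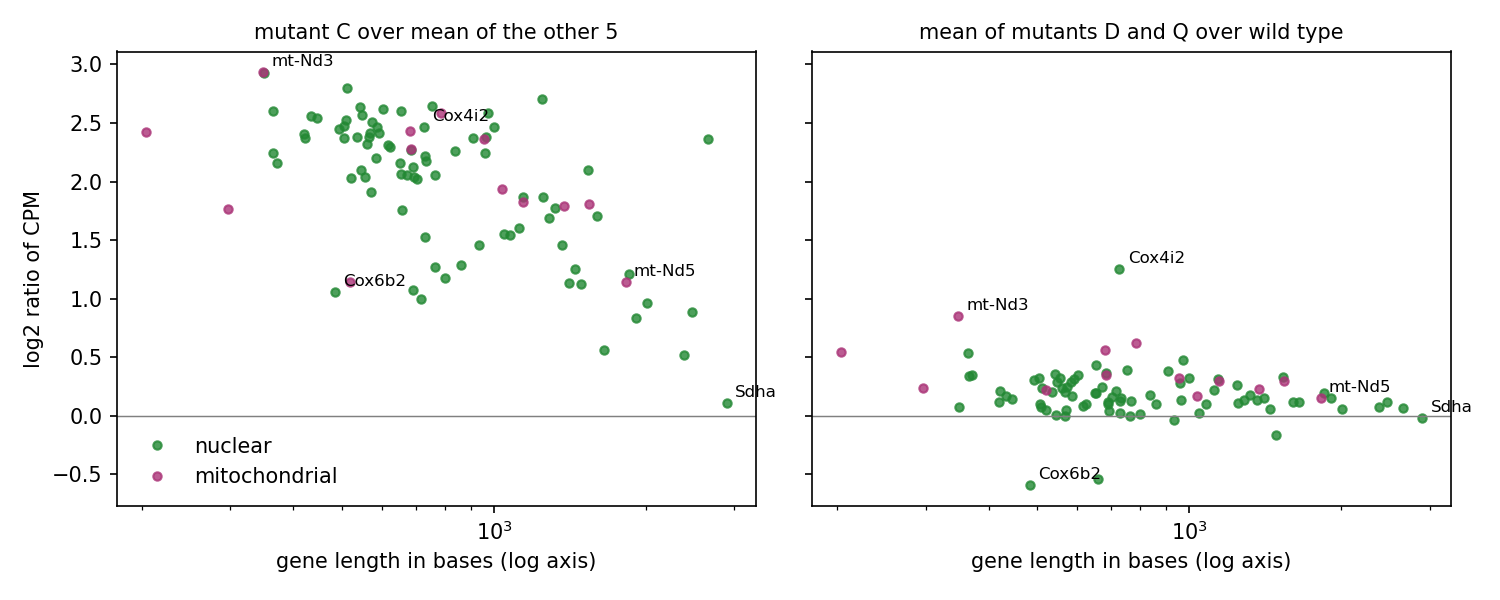
Points are member genes by gene length in bases (log axis), with the log2 ratio of CPM for mutant C over the mean of the other 5 libraries (left) and for the mean of mutants D and Q over the wild type (right). For nuclear members the ratio falls with length in mutant C (rho -0.58) and more weakly on the right (rho -0.20). Cox4i2 stands above the other members on the right.

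Complex I, the NADH dehydrogenase, showed no called gene among 35 nuclear members. Their median log2 change was 1.26 with all libraries and 0.13 without mutant C. The most abundant, the accessory subunit Ndufb8, stood at 288, 287 and 299 TPM in the wild type and at 443, 308 and 288 TPM in mutants C, D and Q. Ndufv2, which carries an iron-sulfur cluster of the NADH-binding arm, stood at 239, 267 and 256 TPM and at 426, 282 and 275 TPM. Ndufa11, at 24.2 TPM in the wild type, was the lowest. With all libraries and the length trend removed, Ndufa11 had the highest log2 change of the 80 nuclear members tested. It was 1.32, above the 1.15 of Cox4i2, but Ndufa11 was not called. The smallest p-values belonged to the accessory subunits Ndufb4 and Ndufa5. Ndufb4 stood at 35.4, 43.5 and 47.5 CPM in the wild type and at 293, 51.6 and 65.8 CPM in the mutants (without mutant C, log2 change 0.48, SE 0.14, edgeR adjusted p = 0.282). Ndufa5 stood at 31.4, 35.3 and 35.6 CPM and at 233, 38.4 and 48.3 CPM (without mutant C, log2 change 0.35, SE 0.11, edgeR adjusted p = 0.317). In both, mutant Q exceeded mutant D.

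Complex II, succinate dehydrogenase, is the smallest complex and the single one with no mitochondrial gene. Sdha, the flavoprotein subunit and at 2900 bases the longest member, was the nearest to unchanged in CPM in mutant C, at 443 CPM against 377 to 435 CPM in the wild type. In TPM it was the reverse of most members: 281, 282 and 282 in the wild type and 99.0, 275 and 231 in mutants C, D and Q. The iron-sulfur subunit Sdhb stood at 209, 238 and 239 TPM and at 300, 255 and 263 TPM (without mutant C, log2 change 0.31, SE 0.13, edgeR adjusted p = 0.480). The membrane anchors Sdhd and Sdhc averaged 302 and 248 TPM in the wild type and 303 and 221 TPM in mutants D and Q.

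Of the 8 nuclear genes of complex III, the cytochrome bc1 complex, 0 were called, and their median log2 change was 1.30 with all libraries and 0.18 without mutant C. Uqcrh, the hinge protein and the most abundant, stood at 99.2, 128 and 141 CPM in the wild type and at 789, 142 and 157 CPM in mutants C, D and Q, so that D and Q lay just past the wild-type range. Uqcrb, an accessory subunit, averaged 416 TPM in the wild type and 435 TPM in mutants D and Q. Uqcrfs1, the Rieske iron-sulfur protein, was the lowest, at 151 TPM in both. Uqcrq, another accessory subunit, had the smallest p without mutant C (log2 change 0.31, edgeR adjusted p = 0.436).

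In complex IV, cytochrome c oxidase, Ndufa4, first named as a complex I subunit and now placed here, was the most abundant nuclear gene, at 872, 1042 and 980 TPM in the wild type and at 1894, 982 and 1181 TPM in mutants C, D and Q. Cox7a2, the common form of subunit 7a, stood at 70.2, 104 and 103 CPM and at 650, 109 and 134 CPM (without mutant C, log2 change 0.39, edgeR adjusted p = 0.505). Of the 16 nuclear genes tested in this complex, Cox4i2 alone was called in any edgeR fit given here. Apart from Cox4i2 and Cox6b2, the 78 other nuclear members of all complexes ran from -0.51 (Cox6a2) to 0.55 (Cox7a1) without mutant C.

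ATP synthase, which makes ATP as protons flow back through it, had the most abundant nuclear member. The catalytic beta subunit Atp5b stood at 1497, 1396 and 1453 TPM in the wild type and at 884, 1505 and 1414 TPM in mutants C, D and Q, and the alpha subunit Atp5a1 averaged 980 TPM in the wild type and 969 TPM in mutants D and Q. The smallest p-values belonged to the short genes Atp5j2 (subunit f) and Atp5mpl, a small protein bound to the membrane sector. Atp5j2 stood at 102, 134 and 137 CPM and at 860, 151 and 184 CPM (without mutant C, log2 change 0.42, SE 0.14, edgeR adjusted p = 0.371). Atp5mpl stood at 62.8, 85.1 and 84.3 CPM and at 521, 86.8 and 109 CPM (without mutant C, log2 change 0.34, edgeR adjusted p = 0.505). Atp5s, at 9.77 TPM in the wild type, was the lowest and had a log2 change of -0.17 without mutant C.

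The 13 mitochondrial genes were each expressed at 1657 TPM (mt-Nd6) to 15429 TPM (mt-Atp8) on average in the wild type, far above the nuclear subunits. Their sum was 83701, 82874 and 91934 TPM in wild-type A, F and L, and 153467, 82096 and 126454 TPM in mutants C, D and Q. The mutants did not move together: C and Q lay above the wild type and D just below it. The difference in the mean log2 sum was 0.44 (exact two-sided permutation p = 0.4). The nuclear members summed to 22227, 23384 and 24082 TPM in the wild type and to 33656, 23847 and 24350 TPM in the mutants (log2 difference 0.21, exact permutation p = 0.2).

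The ratio of mitochondrial to nuclear summed TPM was 3.77, 3.54 and 3.82 in the wild type and 4.56, 3.44 and 5.19 in mutants C, D and Q (3.71 ± 0.145 and 4.40 ± 0.886, SD, n = 3 each, exact permutation p = 0.4). The mutant values surrounded the wild-type ones, so the ratio did not separate the genotypes. By complex, the ratio of mean TPM was highest in mutant Q for complexes I, III and IV (24.4, 26.4 and 50.5) and in mutant C for complex V (43.5, beside 41.2 in Q and 25.3 to 27.2 in the wild type). Without mutant C the log2 differences were 0.24 for the mitochondrial sum (exact permutation p = 0.8), 0.05 for the nuclear sum (p = 0.4, exact) and 0.19 for their ratio (p = 0.8, exact). Hepatoblast markers, which include Alb and Afp, were also highest in the libraries of mutants C and Q: the 10 listed genes summed to 70.8, 42.6 and 19.9 CPM in wild-type A, F and L and to 189, 73.1 and 546 CPM in mutants C, D and Q, with none of them at 0 in every library. Mutant Q had the most marker RNA and the highest ratio, and mutant C the largest mitochondrial sum. Wild-type L had the least marker RNA and the largest wild-type sum and ratio. The part of the hepatoblast transcripts in the result was not tested.

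**Figure D4:**
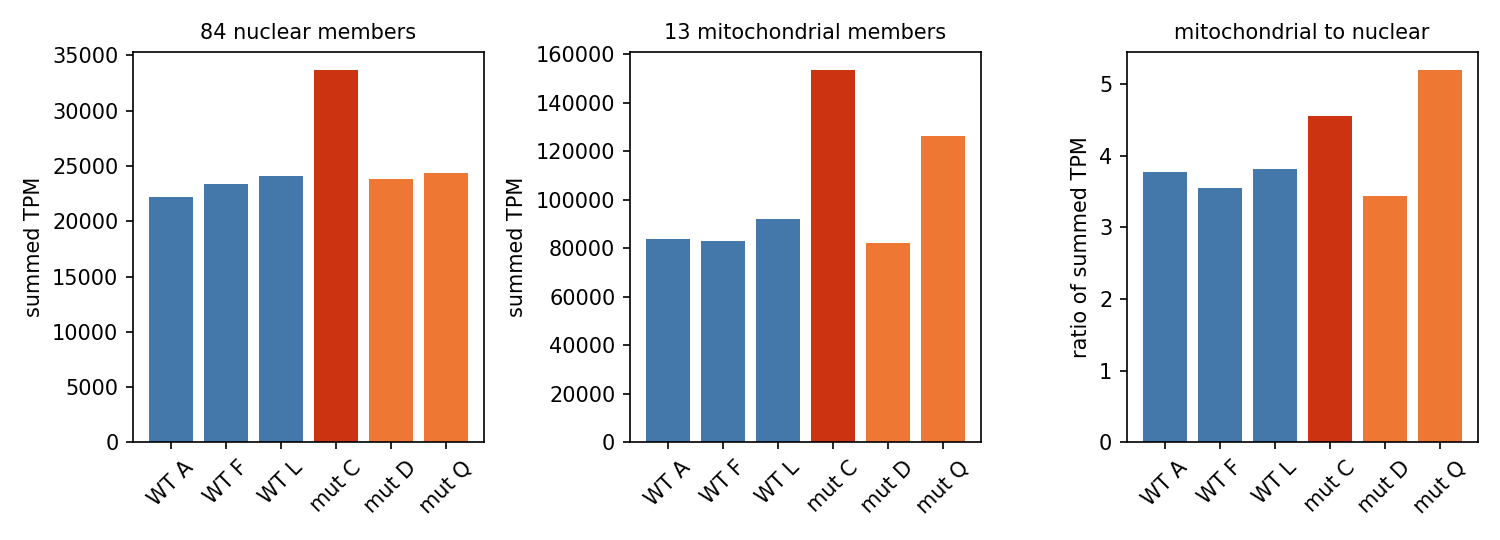
Bars give the summed TPM of the 84 nuclear members, of the 13 mitochondrial members and the ratio of the sums in each library, without error bars because each bar is 1 library. The ratio is 3.54 to 3.82 in the wild type and 4.56, 3.44 and 5.19 in mutants C, D and Q.

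Among the mitochondrial genes, mt-Nd3, a core subunit of complex I, differed most. It stood at 1772, 2217 and 2437 TPM in the wild type and at 7153, 2588 and 4390 TPM in mutants C, D and Q, the single mitochondrial gene whose TPM was higher in every mutant than in every wild-type library. Its log2 change was 2.19 (SE 0.78, edgeR adjusted p = 0.578) with all libraries and 0.85 (SE 0.27, edgeR adjusted p = 0.338) without mutant C. The ratio of mt-Nd3 to mt-Nd5 TPM was 0.981, 1.17 and 1.23 in the wild type and 5.0, 1.48 and 2.14 in the mutants. mt-Nd3 is 348.0 bases long and mt-Nd5, a longer core subunit of the same complex, 1824.0 bases.

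The departures of mutants C and Q from the wild type were uneven along the mitochondrial genome. Relative to the wild-type mean TPM, mt-Co3, subunit 3 of complex IV, was 2.39-fold in C, 1.05-fold in D and 1.71-fold in Q. mt-Atp6, the proton channel subunit of ATP synthase, was 2.10-fold, 0.999-fold and 1.65-fold, and mt-Atp8 2.09-fold, 1.01-fold and 1.60-fold. mt-Co1, the catalytic subunit of complex IV, was 1.25-fold, 0.897-fold and 1.31-fold. mt-Nd5 and mt-Nd6, which lie side by side on opposite strands, were 0.755-fold and 0.774-fold in C and 1.09-fold and 1.15-fold in Q.

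Mutant Q exceeded every wild-type library in 13 of 13 mitochondrial genes in TPM, and mutant D lay below every wild-type library in 7. Mutant C exceeded the other 5 libraries in 7 and lay below them in mt-Nd5 and mt-Nd6. These counts were not made over all genes, so they cannot be read as particular to the members. mt-Cytb, the mitochondrial subunit of complex III, stood at 6225, 5428 and 6585 TPM in the wild type and at 7700, 5045 and 8316 TPM in the mutants. mt-Co2, the subunit that accepts electrons from cytochrome c, stood at 10791 to 12314 TPM in the wild type and at 20369, 10531 and 15836 TPM in the mutants. The other core subunits of complex I, mt-Nd1, mt-Nd2, mt-Nd4 and mt-Nd4l, ran from 2714 to 5150 TPM in the wild type, and in each of them mutants C and Q lay above that gene's wild-type range. Neighbouring genes overlap by 43 bases (mt-Atp8 and mt-Atp6), 1 base (mt-Atp6 and mt-Co3), 7 bases (mt-Nd4l and mt-Nd4) and 14 bases (mt-Nd5 and mt-Nd6). mt-Nd5 and mt-Nd6 lie on opposite strands, but strandedness of the counting is not given in the sources used here. The other pairs each lie on the same strand. Reads that lie wholly within the 43 bases shared by mt-Atp8 and mt-Atp6 cannot be told apart. Of the 36-base windows of these genes, 4.73% and 1.24% were shared between them. The overlaps of 1, 7 and 14 bases are too short to hold a whole window.

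**Figure D5:**
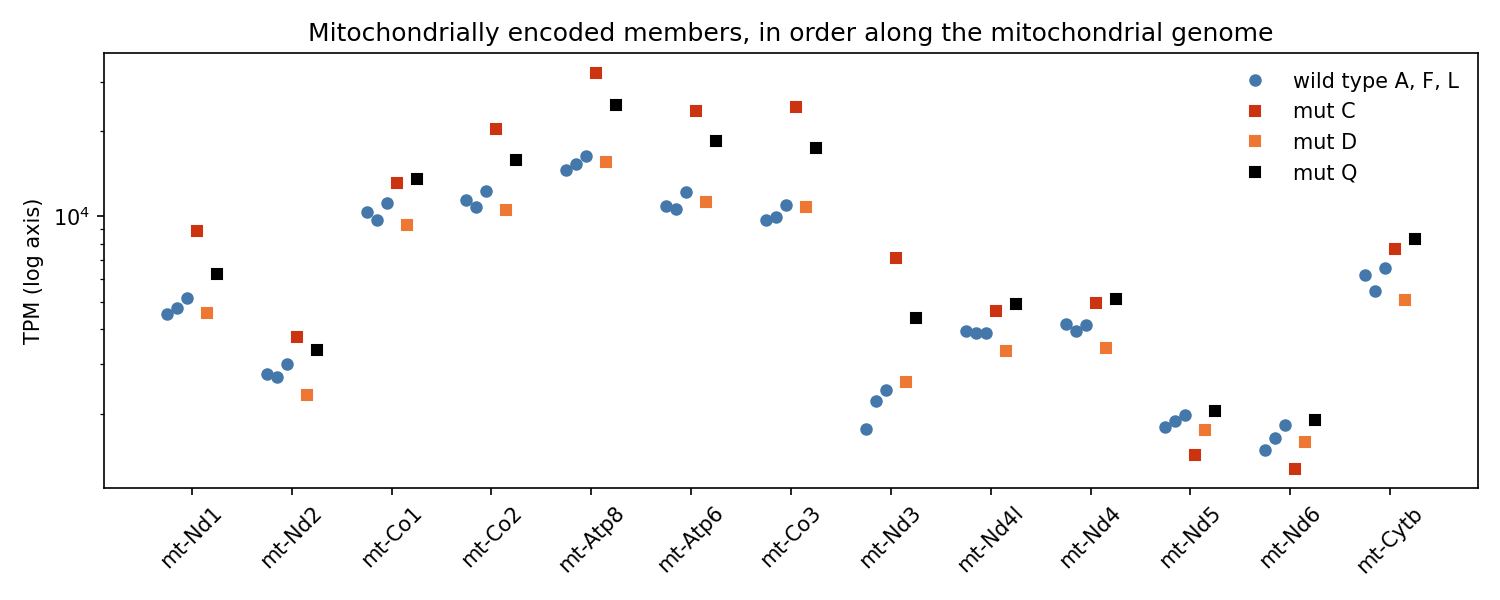
Points give TPM (log axis) of each mitochondrial gene in each library, in order along the mitochondrial genome. Mutants C and Q lie above the wild type from mt-Nd1 to mt-Nd4, by most at mt-Nd3 (7153 and 4390 TPM against 1772 to 2437), while mutant C lies below it at mt-Nd5 and mt-Nd6.

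Genes that build, supply or regulate the chain were read from 10 further lists. Of their members, 0 passed the edgeR threshold with or without mutant C (backgrounds 0.155% and 0.84%). At an unadjusted edgeR p under 0.05, 0 passed with all libraries, against 1.71% (higher) and 3.09% (lower) of all genes. DESeq2 and limma-voom with all libraries called 0 (backgrounds 1.16% and 0.262%). Without mutant C, 8 genes of these lists had an unadjusted edgeR p under 0.05: 2 of complex IV assembly, 1 of coenzyme Q synthesis, 3 of mitochondrial DNA (1 of them lower), 1 of the citric acid cycle and 1 of hypoxia response, against 4.34% (higher) and 6.02% (lower) of all genes. The lists of cytochrome c, cytochrome c1 and acyl carrier (3 tested), complex I assembly (15), complexes II and III assembly (10) and complex IV assembly (21) had median log2 changes of 0.60, 0.50, 0.57 and 0.87 with all libraries and of 0.11, 0.05, 0.07 and 0.11 without mutant C. Without mutant C, Surf1, an assembly factor of complex IV, had a log2 change of 0.31 (SE 0.09, edgeR adjusted p = 0.269) and Coa6, a copper-delivery factor, 0.39 (SE 0.16, edgeR adjusted p = 0.468). Cyc1, the cytochrome c1 subunit of complex III, stood at 138 to 150 CPM in the wild type and at 304, 146 and 167 CPM in mutants C, D and Q. Complex V assembly (3 tested) and coenzyme Q synthesis (13) had medians of 0.24 and 0.28, and of 0.01 and 0.05 without mutant C.

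For the copying and transcription of mitochondrial DNA (26 tested) the median was 0.29, and 0.05 without mutant C. Slirp, which stabilises mitochondrial messenger RNAs, stood at 34.4, 40.4 and 39.6 CPM in the wild type and at 267, 45.7 and 53.8 CPM in mutants C, D and Q (without mutant C, log2 change 0.38, SE 0.10, edgeR adjusted p = 0.216). Polg, the mitochondrial DNA polymerase, had a log2 change of -0.32 (SE 0.11, edgeR adjusted p = 0.359) without mutant C. Tfam, which packages and transcribes mitochondrial DNA, stood at 80.1 to 97.2 CPM in the wild type and at 149, 93.6 and 110 CPM in the mutants. The nuclear regulators of mitochondrial genes (10 tested, 11 without mutant C) had a median of -0.16, and -0.06 without mutant C, and Nrf1 stood at 56.5 to 60.0 CPM and at 50.9, 60.7 and 54.9 CPM. The hypoxia genes above had medians of 0.15 and 0.05.

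The citric acid cycle list (17 tested), which holds the enzymes that feed NADH and succinate to the chain, had a median of 0.39, and 0.09 without mutant C. CPM did not overlap between the groups, with the mutants higher, in 9 of 17 genes with all libraries and 10 without mutant C, against 10.6% and 14.3% of all genes. Pdha1, a subunit of pyruvate dehydrogenase, stood at 287, 348 and 341 CPM in the wild type and at 511, 377 and 389 CPM in mutants C, D and Q (without mutant C, log2 change 0.23, SE 0.10, edgeR adjusted p = 0.480).

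Among wild-type libraries the members varied little. The median coefficient of variation of TPM over A, F and L was 6.12% for the 80 nuclear members tested and 6.66% for the mitochondrial ones, against 10.8% for all genes tested and 5.69% for all genes at 100 TPM or more. The median wild-type level of the nuclear members was lowest in complex I, at 154 TPM, between 265 and 291 TPM in complexes II, III and IV, and highest in complex V, at 454 TPM.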

How the data were processed

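RNA was measured in 6 libraries. Per the submitters' processing notes, the authors used CASAVA 1.8.2, Bowtie 1.1.1 and RSEM 1.2.18 with mm10; the annotation release, layout and strand setting are among what is not given in the sources used here. The authors deposited expected counts (reads assigned to a gene, need not be whole, not normalized) and TPM (corrected for gene length, scaled to one total per library), per the file headers; gene lengths came from the same deposited files. Symbols were looked up by Ensembl identifier (24448 of 24815 matched); positions are from GENCODE M21.

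Counts were rounded and fitted with edgeR 4.0.16 (R 4.3.3): filterByExpr with a minimum count of 10, TMM factors, quasi-likelihood test of mutant against wild type, and Benjamini-Hochberg adjustment over all genes tested with a threshold of 0.05. CPM values use the TMM-scaled library sizes. The TMM factor of mutant C was 0.614, against 1.05 to 1.17 in the others. Sums, ratios and paralog shares of TPM were compared by exact two-sided permutation tests (SciPy 1.17.1). Alternatives were DESeq2 1.42.0, limma-voom (limma 3.58.1), no filter, no TMM factors, a loess length trend removed per library (span 0.5) and each library left out; DESeq2, limma-voom and the length fit without mutant C were chosen after seeing the data, as were the pericyte and endothelial markers. The edgeR fit, with and without mutant C, was tested on simulated counts. These had the same spread for every gene, no trend with gene length and no library apart from the others. The DESeq2, limma-voom and length fits were not tested in this way. Replicates of a group differed by more than counting noise (smallest chi-square per gene 9.25), so none was counted as a repeat. A match of 36-base windows was used to find members whose reads other listed genes could share: 64 of 84 nuclear and 10 of 13 mitochondrial members shared none. Counted against every annotated gene, nuclear copies included, 98.1 to 100% of the windows of mt-Nd3, mt-Nd4l, mt-Atp6, mt-Co3 and mt-Co2, and 59.7 and 62.6% of those of mt-Co1 and mt-Nd4, were shared; what the aligner did with such reads is not known. Members and gene lists were chosen with earlier results of these data known. Genes named in the text are the mitochondrial members, all paralogs, in each complex the 2 highest, the lowest and those of smallest p, and for the further lists genes of smallest p; the exceptions, chosen after their values were seen, are Sdha, Gm10175, Tfam, Nrf1, Hif1a and the marker genes.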

Additional observations from a re-analysis of the deposited data

How the results depend on the processing

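The count of all genes past the threshold, 19 with all libraries, was 142 with DESeq2, 36 without the filter on low counts, 32 with limma-voom and 54 with the length trend removed, and 0 to 106 when each library was left out in turn, the 106 without mutant C and 0 without each of the other 5. With mutant C left out it was 252 (DESeq2), 111 (limma-voom) and 112 (length trend removed). The count of members, 0, was 1 with DESeq2 and 1 with the length trend removed, 0 to 1 when each library was left out, and 1 in each of the 3 other fits without mutant C; each time it was Cox4i2.

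The median log2 change of nuclear members, 1.22, was 0.67 without TMM factors (mitochondrial, 1.07 and 0.57), 0.11 with the length trend removed and 0.15 to 1.57 when each library was left out; without mutant C it was 0.15 (DESeq2), 0.15 (limma-voom) and 0.051 (length trend removed). The mitochondrial median was 0.29 to 1.45 when each library was left out, 0.23 (limma-voom without mutant C) and 0.20 (length trend removed without mutant C).

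Cox6b2 changed sign with limma-voom (-0.23), without TMM factors (-0.42) and with the length trend removed (-1.03), ran from -0.60 to 0.29 when each library was left out (-0.02 without wild-type F), and was -0.59, -0.60 and -0.78 without mutant C in DESeq2, limma-voom and the length fit. With the length trend removed, Cox6b1 was -0.044, or -0.067 without mutant C, and mt-Atp8 was -0.062. The paralog share differences, in percentage points, ran from -1.36 to 4.95 for Atp5g1, -1.20 to 3.51 for Atp5g2 and -8.46 to 2.56 for Atp5g3 when each library was left out. The cause of these moves was not tested. In all, 244 of 290 alternatives over 26 results kept the direction and side of the threshold or moved by less than the limit set. For sums, ratios and shares the side was fixed in advance, because no permutation p could reach 0.05. For the medians the limit was the spread within groups, mutant C included. The mitochondrial median of 0.29 without mutant C, against 1.07 with all libraries, therefore counted as unmoved. No paired analysis was possible because the replicate letters differ between the groups. With 3 libraries a group and 1 of them apart in gene length, small differences in short genes were not resolved, and no exact permutation p could go below 0.1.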
